A study of Homo sapiens with 688 samples.

Results

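The genes described here are 45 cytosolic chaperones, co-chaperones and heat shock factors, taken by name from the gene symbols of the deposited count tables, which list 28430 symbols for BT20 cells and 23710 for U87 and LNCaP cells. All 45 were found in both lists. They fall into 10 roles: 2 heat shock factors, 14 J-domain proteins of classes A, B and C, 2 HSP90 proteins, 6 HSP90 co-chaperones, 8 HSP110, nucleotide exchange and quality control factors, 3 small heat shock proteins, 2 subunits of the mitochondrial chaperonin and 8 subunits of the cytosolic chaperonin CCT. The description as cytosolic did not hold for every member, since HSPD1, HSPE1 and DNAJA3 are known as mitochondrial proteins and DNAJB12 and DNAJB14 as proteins of the endoplasmic reticulum membrane.

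Messenger RNA was measured by PLATE-Seq, a 3′-end RNA-Seq method in which each well of a plate receives its own barcode and all wells are pooled into 1 library. BT20 cells, an established line of breast carcinoma, received bortezomib at 0.044 µM, crizotinib at 7.16 µM, mitoxantrone at 0.18 µM, idarubicin at 0.084 µM, albendazole at 0.56 µM, aprepitant at 2 µM or gemcitabine at 0.194 µM. The exposure lasted 6 h, 12 further wells received the vehicle DMSO alone, and each drug had 12 wells as well. Other portions of these wells were combined into 16 pools, 2 per condition, for conventional TruSeq RNA-Seq. U87 cells, an established glioblastoma line, received 184 compounds in 2 sets for 24 h, with 1 well on each of 2 plates for every compound, beside DMSO and untreated wells, and LNCaP prostate cancer cells were left untreated, with 2 tables of 96 wells. By the study's methods, the LNCaP lysates of a single culture plate were split between PLATE-Seq and a conventional isolation of mRNA, so that wells of both tables can come from the same cells, and the labels do not say which table is which. Doses were set by the study from its own viability or growth tests, so they differ between compounds and between the 2 treated lines. By the study's own note, BT20 is on a register of lines that are often misidentified. Each U87 well combined the lysates of a pair of wells of a denser plate, and a compound kept its place on both plates of its set, so that place and compound cannot be told apart. Nothing says that the wells of a condition came from separate cultures, so p-values measure the spread between wells, which may be technical.

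Chaperones bind unfolded proteins. HSP70 proteins do so in cycles of ATP hydrolysis that J-domain proteins start and that exchange factors such as HSPH1 and the BAG proteins end, HSP90 finishes the folding of kinases and steroid receptors with its co-chaperones, small heat shock proteins hold unfolded chains in solution, and CCT folds actin and tubulin in a closed chamber. When unfolded proteins build up, the transcription factor HSF1 is released from chaperones and binds heat shock elements, inverted repeats of the letters GAA and TTC, ahead of many chaperone genes. Bortezomib is a reversible inhibitor of the proteasome, the protease that degrades ubiquitin-tagged proteins.

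The promoter windows of the members, 250 bases before to 50 bases after an annotated start in RefSeq (GRCh38.p14), were searched on both strands for TTCNNGAA and GAANNTTC, a pair of neighbouring units of the heat shock element, where N is any base. Both motifs overlap in a run of 3 units. A window was present for 40 members, and the others (CRYAB, FKBP4, CCT6A, HSF1 and STUB1) were not searched. Of the 59 windows of members, 28.8% held a match, against 13.5% of all 35116 windows, and 10.2% held 3 units in a row, against 0.49% of all windows. In 16 members at least 1 window held a match and in 6 members a window held 3 units in a row. Among the 12 members higher after bortezomib in the BT20 wells (below), 8 had a match and 5 a run of 3 units, and among the other 28 members with a window, 8 had a match and 1 a run of 3. These 28 are not a group without a rise. With a match among them, DNAJA4, DNAJB4, BAG2 and STIP1 were too low to be tested in the wells, and the last 3 were higher in the TruSeq pools (below). A match is a description of letters, and nothing in these data shows binding. For the 8 of these 12 members that had a match, the stretch before the start with most matches is shown, since these are the genes the results turn on. Further matches are not shown, namely those after the start (in DNAJB1, HSPB8 and DNAJA1, the run of 3 units of DNAJA1 among them), a further run of 3 units in HSP90AB1 and a match further upstream in CHORDC1. They are written 5′ to 3′ on the strand of the gene with the matches in capitals, and come from chr19:14518417-14518494 (DNAJB1, minus strand), chr14:102087085-102087152 (HSP90AA1, minus), chr6:44247758-44247810 (HSP90AB1, plus), chr2:197500048-197500090 (HSPD1, minus), chr11:90223050-90223129 (CHORDC1, minus), chr12:119178823-119178870 (HSPB8, plus), chr9:33025055-33025102 (DNAJA1, plus) and chr6:159789806-159789852 (TCP1, minus).
DNAJB1: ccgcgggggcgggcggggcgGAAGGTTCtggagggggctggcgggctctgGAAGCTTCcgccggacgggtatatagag
HSP90AA1: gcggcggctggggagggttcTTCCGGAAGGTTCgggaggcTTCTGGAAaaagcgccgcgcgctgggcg
HSP90AB1: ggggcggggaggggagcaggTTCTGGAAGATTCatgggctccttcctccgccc
HSPD1: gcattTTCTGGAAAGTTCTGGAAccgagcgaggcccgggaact
CHORDC1: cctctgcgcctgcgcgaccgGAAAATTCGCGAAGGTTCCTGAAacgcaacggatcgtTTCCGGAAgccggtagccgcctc
HSPB8: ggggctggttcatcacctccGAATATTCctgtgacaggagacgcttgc
DNAJA1: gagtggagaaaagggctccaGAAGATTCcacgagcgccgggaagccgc
TCP1: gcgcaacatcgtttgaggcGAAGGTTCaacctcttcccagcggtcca

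Depth in BT20 was 367848 to 1317952 counts a well (median 952949) and 16881740 to 29068232 counts a TruSeq pool, and among U87 wells it went from 76948 to 1128215 in set 1 and from 17063 to 1537549 in set 4. CPM is a gene's count divided by the total of its library and scaled to a common depth. A level below about 10 CPM therefore rested on fewer than 10 counts in most PLATE-Seq wells, and 10 of the 45 members had a mean under 10 CPM in the BT20 DMSO wells. Of the line markers, EPCAM (mean 263.5 CPM), KRT8 (1027.6 CPM) and KRT18 (1382.5 CPM) were high in BT20 DMSO wells, but KRT19 was at 0 in 9 of 12 wells. In U87 the mesenchymal marker VIM was at 3303.9 and 1525.7 CPM in the DMSO wells of sets 1 and 4, and KLK3, a prostate marker, was at 0 in BT20 and U87 and at 536.6 and 1250.3 CPM on the LNCaP plates. In bulk wells, a change in the share of cells of a kind and a change in RNA per cell cannot be told apart.

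In BT20 cells, bortezomib raised 12 of the 37 members that passed the count filter, and lowered 0 (edgeR quasi-likelihood test, adjusted p under 0.05). Over all 6330 genes tested in this comparison, 2.94% were higher and 1.99% lower. Of the 37 members, 33 had a log2 fold change above 0 (89.2%, against 49.4% of all genes), with a median of 0.20 against -0.01 over all genes. Together the 45 members took 0.846 to 1.32% of all counts in the bortezomib wells (median 1.12%), and 0.652 to 0.978% in the DMSO wells (median 0.836%). The 8 members that did not pass the filter in this fit were DNAJA4, DNAJB4, DNAJB5, DNAJC7, CRYAB, BAG2, STIP1 and HSF2. Among the 12 members called, BAG3 and HSPB8 passed it through their bortezomib wells.

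**Figure D1:**
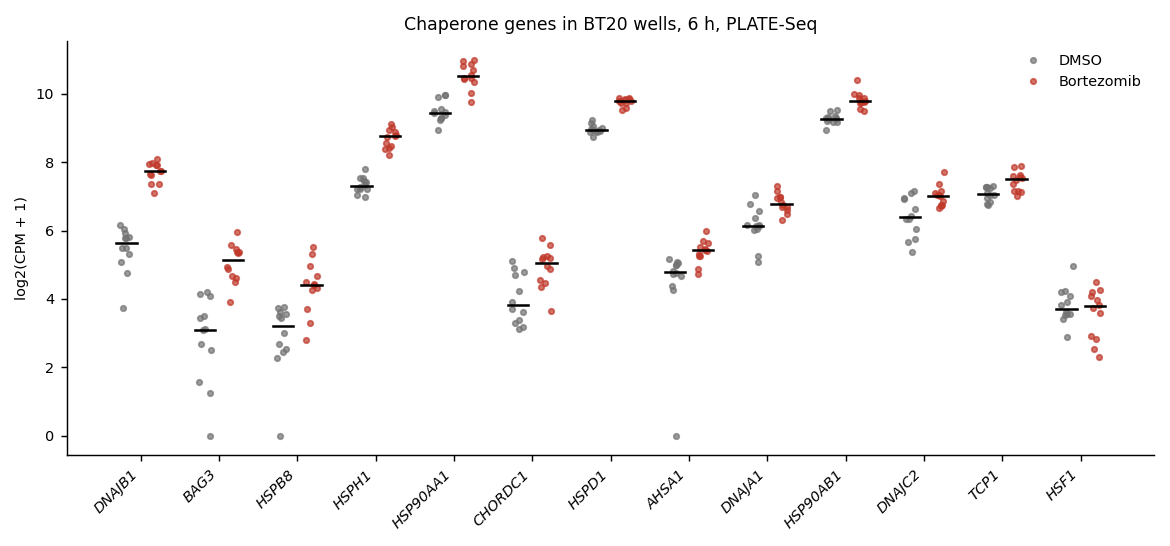
Level of 12 members and HSF1 in each of 12 DMSO wells (grey) and 12 bortezomib wells (red) of BT20 cells, as log2(CPM + 1) on the vertical axis, with a bar at the median of each group. The groups are apart for DNAJB1, HSPH1 and HSPD1, touch or overlap for the other 9 members higher with bortezomib, and lie at the same height for HSF1, whose medians were 12.2 CPM with DMSO and 12.8 CPM with bortezomib. The share of all genes whose groups lie apart is not given here.

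The largest change was in a J-domain protein. DNAJB1 (GRCh37 chr19:14625581-14671203, minus strand), which delivers unfolded proteins to HSP70, was at 12.2 CPM in the lowest, 48.8 in the median and 70.9 in the highest DMSO well, and at 136.1, 212 and 269.6 CPM with bortezomib. All 12 treated wells lay above the highest DMSO well, and the log2 fold change was 2.29 (SE 0.16, adjusted p = 2.29e-18, edgeR). The share of all genes with no overlap of wells is not given here, so overlap is only described gene by gene. DNAJA1 (chr9:33025271-33039905, plus), a class A partner of HSP70, overlapped more between groups, with a median of 109.5 CPM (78.4 to 156) against 69.9 CPM (33.1 to 129.6) and a log2 fold change of 0.72 (SE 0.16, adjusted p = 0.00123, edgeR). DNAJC2 (chr7:102952736-102985277, minus), the J-domain protein of a chaperone pair at the ribosome, rose by a similar amount, to a median of 128.7 CPM (99.5 to 208.7) from 83.0 CPM (40.8 to 141.4), a log2 fold change of 0.67 (SE 0.16, adjusted p = 0.00272, edgeR). The other 7 J-domain members tested were not called. The largest value among them was that of DNAJB14, at 0.64 (SE 0.28, adjusted p = 0.211, edgeR).

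Of the exchange factors, BAG3 and HSPH1 rose. HSPH1 (chr13:31709110-31736525, minus), the HSP110 protein that recharges HSP70 with ATP, was between 297.4 and 553.4 CPM with bortezomib (median 430.6) and between 125.1 and 222 CPM with DMSO (median 158.2), so that its groups did not overlap. Its log2 fold change was 1.48 (SE 0.11, adjusted p = 2.02e-17, edgeR). BAG3 (chr10:121410892-121437331, plus), which links HSP70 to small heat shock proteins and to autophagy, was a low gene, with a median of 7.57 CPM (0 to 17.5) in DMSO wells and 34.6 CPM (14.1 to 61.1) with the drug, and 11 of 12 treated wells were above the highest DMSO well. Its log2 fold change was 2.14 (SE 0.34, adjusted p = 3.35e-06, edgeR). BAG3 passed the count filter through its bortezomib wells, since most of its DMSO wells were too low for it, so its call is a description. The 5 other members of this role that were tested, HSPBP1, BAG1, BAG5, BAG6 and the ubiquitin ligase STUB1, lay between -0.40 and 0.48 and were not called.

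Both HSP90 genes rose. HSP90AA1 (chr14:102547079-102606036, minus), the inducible form, went from a median of 696 CPM (491.5 to 1006.0) to 1458.8 CPM (857.1 to 2048.6), with a log2 fold change of 1.16 (SE 0.12, adjusted p = 4.48e-09, edgeR). HSP90AB1 (chr6:44213903-44221625, plus), the constitutive form, went from 617.8 CPM (494.2 to 734.6) to 888.9 CPM (721.6 to 1360.2), with 0.69 (SE 0.08, adjusted p = 3.48e-09, edgeR). In each case 11 of 12 treated wells were above every DMSO well. Of their co-chaperones, 2 of 5 tested were called. AHSA1 (chr14:77924213-77935815, plus), the activator of the HSP90 ATPase, rose from a median of 26.7 CPM (0 to 35.1) to 41.8 CPM (25.5 to 62.6), a log2 fold change of 0.80 (SE 0.23, adjusted p = 0.0244, edgeR), and CHORDC1 (chr11:89933597-89956245, minus), a zinc-binding HSP90 co-chaperone, from 13.1 CPM (7.79 to 33.5) to 32.6 CPM (11.5 to 54.1), 0.99 (SE 0.28, adjusted p = 0.0199, edgeR). These were the least firm of the 12 calls: AHSA1 lost its call with runs of 8 wells as a replicate block, a fit in which 11 members were called, and CHORDC1 with all 96 wells in 1 fit. PTGES3, CDC37 and FKBP4, which attend the late complex, kinases and steroid receptors, lay between 0.01 and 0.17.

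Among the small heat shock proteins, HSPB8 (chr12:119609360-119662660, plus), the partner of BAG3, rose from a median of 8.39 CPM (0 to 12.7) to 20.4 CPM (6.03 to 44.6), with 9 of 12 wells above the highest DMSO well and a log2 fold change of 1.57 (SE 0.35, adjusted p = 0.00156, edgeR). HSPB8 too passed the count filter through its bortezomib wells, so its call is a description. HSPB1, more abundant in these cells, had medians of 1564.3 CPM and 1471.0 CPM and a log2 fold change of 0.17 (SE 0.08, adjusted p = 0.237, edgeR), which did not pass. The mitochondrial chaperonin HSPD1 (chr2:198351308-198381461, minus) was higher without overlap, at a median of 887.5 CPM (730.3 to 938.6) against 487 CPM (425.1 to 599.3) and 0.92 on the log2 scale (SE 0.08, adjusted p = 3.61e-15, edgeR). Its lid HSPE1, whose gene (chr2:198364864-198368173, plus) overlaps the annotated span of HSPD1 on the opposite strand, had 0.56 (SE 0.17) and missed the threshold with an adjusted p of 0.0535 (edgeR). The study counted sense-strand reads, so reads of the pair were kept apart by strand in PLATE-Seq.

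Of the 8 CCT subunits, TCP1 (chr6:160199530-160210735, minus) was called, at a median of 181.1 CPM (127.7 to 233.6) against 132.8 CPM (105.9 to 157.7), a log2 fold change of 0.50 (SE 0.12, adjusted p = 0.00229, edgeR). The other 7 subunits had log2 fold changes from 0.02 to 0.39 and were not called. The heat shock factor HSF1 itself had -0.11 (SE 0.34, adjusted p = 0.932, edgeR), with wells from 3.94 to 21.6 CPM against 6.45 to 30.2 CPM, while HSF2 did not pass the filter. HSP90, CCT, HSPD1 and HSPE1 genes are known to have processed pseudogenes, and uniquely mapped reads can lose part of such genes, so their levels are less certain than their changes between wells of 1 plate.

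In the related lists, 3 of 6 HSP70 genes tested were higher (HSPA1B, HSPA8 and HSPA13), as were 3 of 10 chaperones of the endoplasmic reticulum (HSPA5, HSP90B1 and CALR) and 0 of 4 mitochondrial chaperones and proteases, and 0 of any of these lists were lower. All these lists were written with earlier results of these data known.

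The TruSeq pools held the same wells at greater depth and so are a second measurement, not a second experiment. All 45 members passed the filter there. With bortezomib, 38 were higher and 0 lower, in a fit where 21.3% of all 14970 genes were higher and 19.6% lower, with a median of 0.31 over members and 0.00 over all genes. The members' share of counts was 2.09 and 2.23% in the 2 bortezomib pools and 1.43 and 1.45% in the 2 DMSO pools. Without any 1 of these 4 pools, between 33 and 37 members were called.

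All 12 members called in the wells were higher in the pools too, at like size. DNAJB1 was at 757.6 and 822.7 CPM in the bortezomib pools and at 149.4 and 153 CPM in the DMSO pools (log2 fold change 2.46, SE 0.05), BAG3 at 102.6 and 114.2 against 23.7 and 23.8 CPM (2.26, SE 0.07) and HSPH1 at 1508.4 and 1680.7 against 622.5 and 611 CPM (1.44, SE 0.05). For the remaining 9, the log2 fold changes ran from 0.53 for TCP1 to 1.57 for HSPB8.

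The pools added members that the wells were too shallow to test. DNAJB4 (chr1:78444859-78483648, plus), a class B partner of HSP70, was at 125.9 and 149.7 CPM against 32.7 and 33.9 CPM, a log2 fold change of 2.12 (SE 0.08, adjusted p = 3.76e-15, edgeR). In the PLATE-Seq wells it was listed at 0 in 8 of 12 DMSO wells, with a median of 0 and a highest value of 6.82 CPM, and at 4.05, 11.1 and 18.2 CPM (lowest, median, highest) with bortezomib. BAG2 had 0.81 (SE 0.13) from 4.34 and 5.31 CPM to 7.37 and 8.77 CPM, HSF2 0.60 (SE 0.09) from 14.4 and 15.1 CPM to 20.6 and 21.8 CPM, STIP1, which bridges HSP70 and HSP90, 0.55 (SE 0.04) and DNAJC7 0.29 (SE 0.05). CRYAB (0.31, SE 0.16, adjusted p = 0.123, edgeR) and DNAJB5 (-0.16, SE 0.17) were low in the pools as well, at 3 to 5 CPM, and DNAJA4 was below 1 CPM in every pool.

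All 8 CCT subunits were called in the pools, with log2 fold changes from 0.16 to 0.53, TCP1 again the highest. HSF1 had 0.27 (SE 0.05, adjusted p = 7.92e-05, edgeR), against -0.11 (SE 0.34) in the wells. HSPB1 was apart in the same direction: the pools gave 0.65 (SE 0.09, 413.2 and 429.4 CPM against 259.3 and 306.5 CPM), while the PLATE-Seq wells, where it was abundant, gave 0.17. HSP70 genes were higher in 11 of 12 cases, chaperones of the endoplasmic reticulum in 10 of 11, and mitochondrial chaperones and proteases in 4 of 6 with 1 lower (CLPX).

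**Figure D2:**
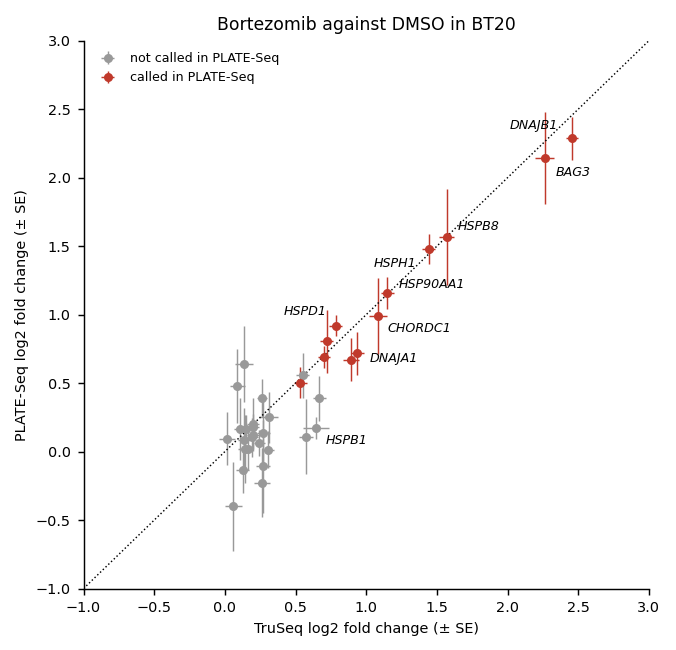
Log2 fold change of 37 members with bortezomib against DMSO in BT20 cells, with bars of 1 SE and the dotted line of equal values. Values are from 12 against 12 PLATE-Seq wells (vertical axis) and from 2 against 2 TruSeq pools of the same wells (horizontal axis). Members called in PLATE-Seq (red) lie along the line from TCP1 at 0.50 and 0.53 to DNAJB1 at 2.29 and 2.46.

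The other 6 drugs changed few of the members tested at PLATE-Seq depth. Between 34 and 37 members were tested with each. Of the HSP110, exchange and quality control factors, 6 of 8 were tested with each, against 7 with bortezomib. HSPB1 was the only small heat shock protein tested with crizotinib, albendazole, aprepitant and gemcitabine. Members not tested were not shown to be unchanged. Over the 212 tests of a member with these 6 drugs, the log2 fold change ran from -1.03 (BAG1, albendazole) to 0.76 (HSPB8, mitoxantrone). With idarubicin, a topoisomerase II poison, 1 of 37 members was higher and 0 lower, where 0.85% of all genes were higher and 1.93% lower. This was DNAJC9, a J-domain protein that is also a histone chaperone (chr10:74943120-75007013, minus), at a median of 86.4 CPM (48.9 to 103) against 56.4 CPM (26.5 to 91.8). The groups overlapped, 4 of 12 wells lay above the highest DMSO well, and the log2 fold change was 0.60 (SE 0.17, adjusted p = 0.0262, edgeR). It was lost with all 96 wells in 1 fit. In the pools DNAJC9 had 0.26 (SE 0.06, adjusted p = 0.000374, edgeR) with idarubicin and 0.26 (SE 0.06) with mitoxantrone, the other topoisomerase II poison, whose wells gave 0.51 (SE 0.19, adjusted p = 0.273, edgeR).

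By edgeR, 0 members were called with mitoxantrone (1.21% of all genes called in either direction, 4 members with an unadjusted p under 0.05, 1 member called by DESeq2), crizotinib (2.05%, 6 members, 0 by DESeq2), albendazole (0.1%, 3 members, 0 by DESeq2), aprepitant (0%, 2 members, 0 by DESeq2) and gemcitabine (0%, 0 members, 0 by DESeq2). The size of BAG1 with albendazole, a microtubule poison, stood out, with 9 of 12 wells below the lowest DMSO well (median 11.9 against 30.5 CPM) but an adjusted p of 0.387 (edgeR), and the TruSeq value was 0.09 (SE 0.06). It was named after its values were seen.

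**Figure D3:**
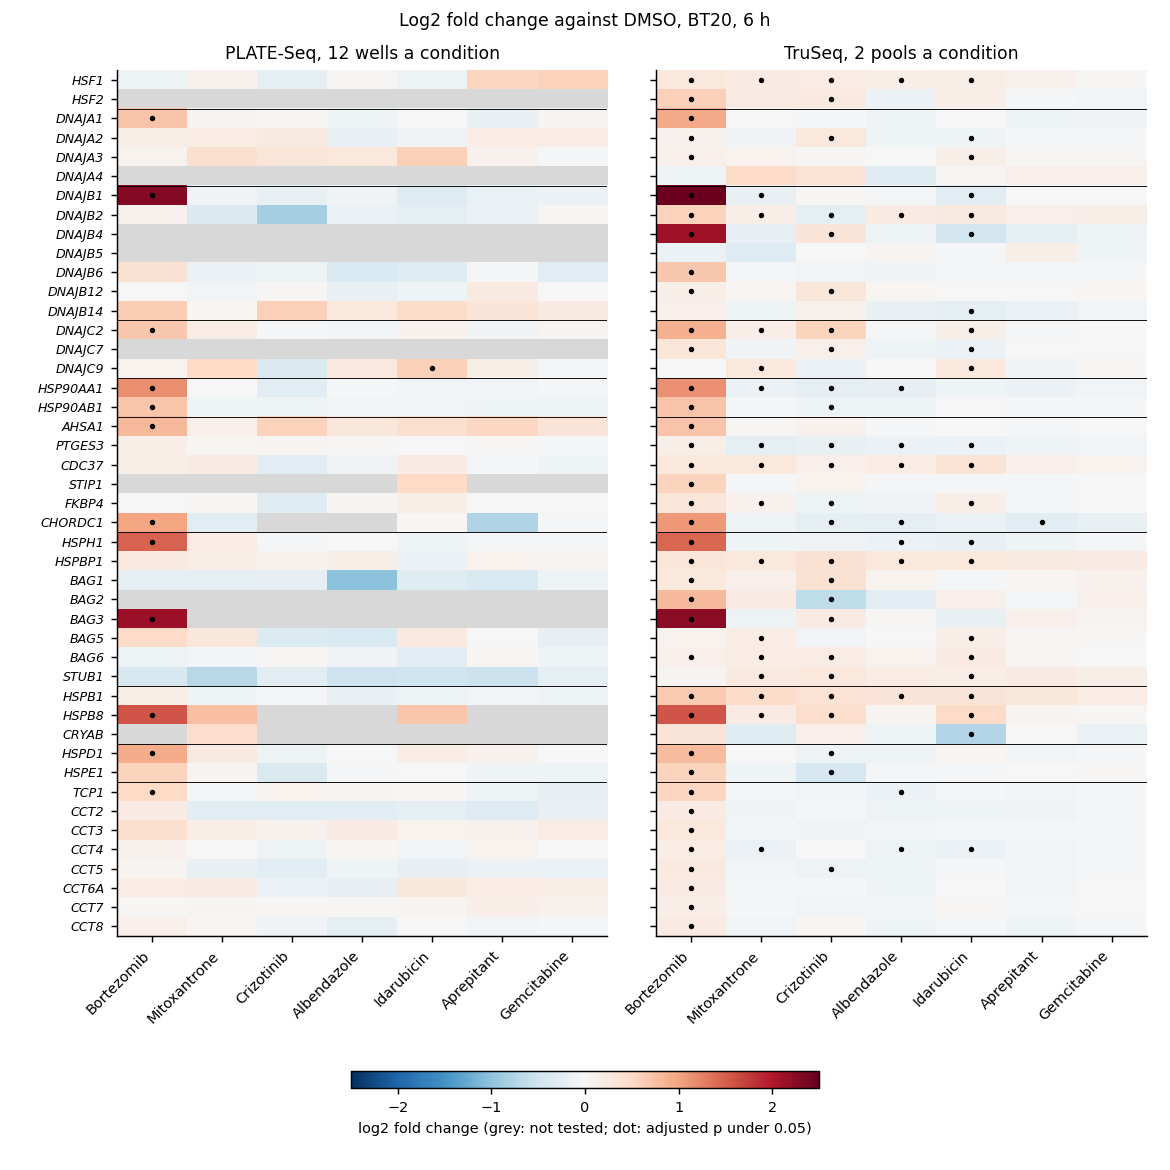
Log2 fold change of the 45 members (rows) for 7 drugs against DMSO in BT20 cells (columns) in PLATE-Seq wells and TruSeq pools, red for higher, blue for lower, grey for members not tested, with a dot where the adjusted p was under 0.05. Bortezomib has 12 dots in PLATE-Seq and 38 in TruSeq, all red, and the other drugs have 1 dot in PLATE-Seq.

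At the depth of the pools, further members passed with these drugs, in both directions and with small sizes. All drugs shared the same 2 DMSO pools, so their values are not independent. Crizotinib, a MET and ALK kinase inhibitor, had 15 members higher (21.6% of all genes) and 10 lower (20.6%), among them DNAJC2 at 0.56 (SE 0.06) and HSPB8 at 0.44 (SE 0.06) above, and BAG2 at -0.63 (SE 0.17) and HSPE1 at -0.43 (SE 0.05) below. Idarubicin had 13 higher (18.9%) and 9 lower (18.4%), with HSPB8 at 0.48 (SE 0.06), DNAJB4 at -0.46 (SE 0.10) and CRYAB at -0.74 (SE 0.18). Mitoxantrone had 12 higher (15.6%) and 4 lower (15.1%), and albendazole 5 higher (7%) and 6 lower (4.3%). The numbers called moved with single pools: without DMSO pool 1, 9 members were called with mitoxantrone, 16 with crizotinib and 0 with albendazole. Without drug pool 1, 10, 12 and 0 were called with mitoxantrone, idarubicin and albendazole, without drug pool 2, 9 with mitoxantrone and 7 with albendazole, and without DMSO pool 2, 7 with albendazole. Aprepitant had 1 member lower (CHORDC1, -0.27, SE 0.07, adjusted p = 0.0424, edgeR; 1.82% of all genes in either direction), with 0, 2, 0 and 5 called without DMSO pool 1, DMSO pool 2, drug pool 1 and drug pool 2, and gemcitabine 0 by edgeR and by DESeq2 (0%, 4 with an unadjusted p under 0.05).

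HSPB1 differed between the methods for all 6 drugs. Its TruSeq values were between 0.18 and 0.47, and its PLATE-Seq values between -0.18 and -0.06. The 2 DMSO pools stood at 259.3 and 306.5 CPM, and all TruSeq values of this gene rest on them. The part of these pools in the difference was not tested.

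In U87 cells, 1 of 34 members differed between 8 DMSO and 8 untreated wells with plate as a term, where 4.07% of all genes were called. HSPD1 was higher with DMSO by 0.36 on the log2 scale (SE 0.09, adjusted p = 0.0156, edgeR), at 274 to 481.9 CPM against 202.2 to 365.6 CPM in set 1 and 559.2 to 859.7 against 414.3 to 591.2 CPM in set 4, so that the ranges overlapped in both. DESeq2 likewise called 1 member, and without the plate term 0 were called by edgeR. Next by p-value with the plate term came DNAJC9, at 0.42 (SE 0.14, adjusted p = 0.0811, edgeR), and CDC37, at -0.44 (SE 0.18, adjusted p = 0.171, edgeR). PTGES3 followed at 0.25 (SE 0.10, adjusted p = 0.179, edgeR) and DNAJB1 at 0.18 (SE 0.085, adjusted p = 0.247, edgeR), none of them called. The same DMSO wells are the controls for the compounds below, so such shifts can enter the compound values.

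Across the 184 compounds, each tested as 2 wells against the 4 DMSO wells of its set with plate as a term, 296 of 6556 tests of a member passed (112 higher, 184 lower). This was 4.51% of the tests of members, against 2.79% of all tests, and compounds of a set share their DMSO wells. In 98 compounds at least 1 member was called, in 86 none, and in 20 compounds 5 or more. Plates differed strongly, HSP90AA1 being at 604.2 and 622.8 CPM in the DMSO wells of plate A of set 1 and at 1731.1 and 1766.0 CPM on plate B. Without plate as a term (no replicate block), 24 calls were made in place of 296. The compounds with most members called are described next, 11 in number because 3 were level at 7 calls, followed by 12 others from a list of proteasome inhibitors, known inducers of the heat shock response and drugs shared with the BT20 screen.

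**Figure D4:**
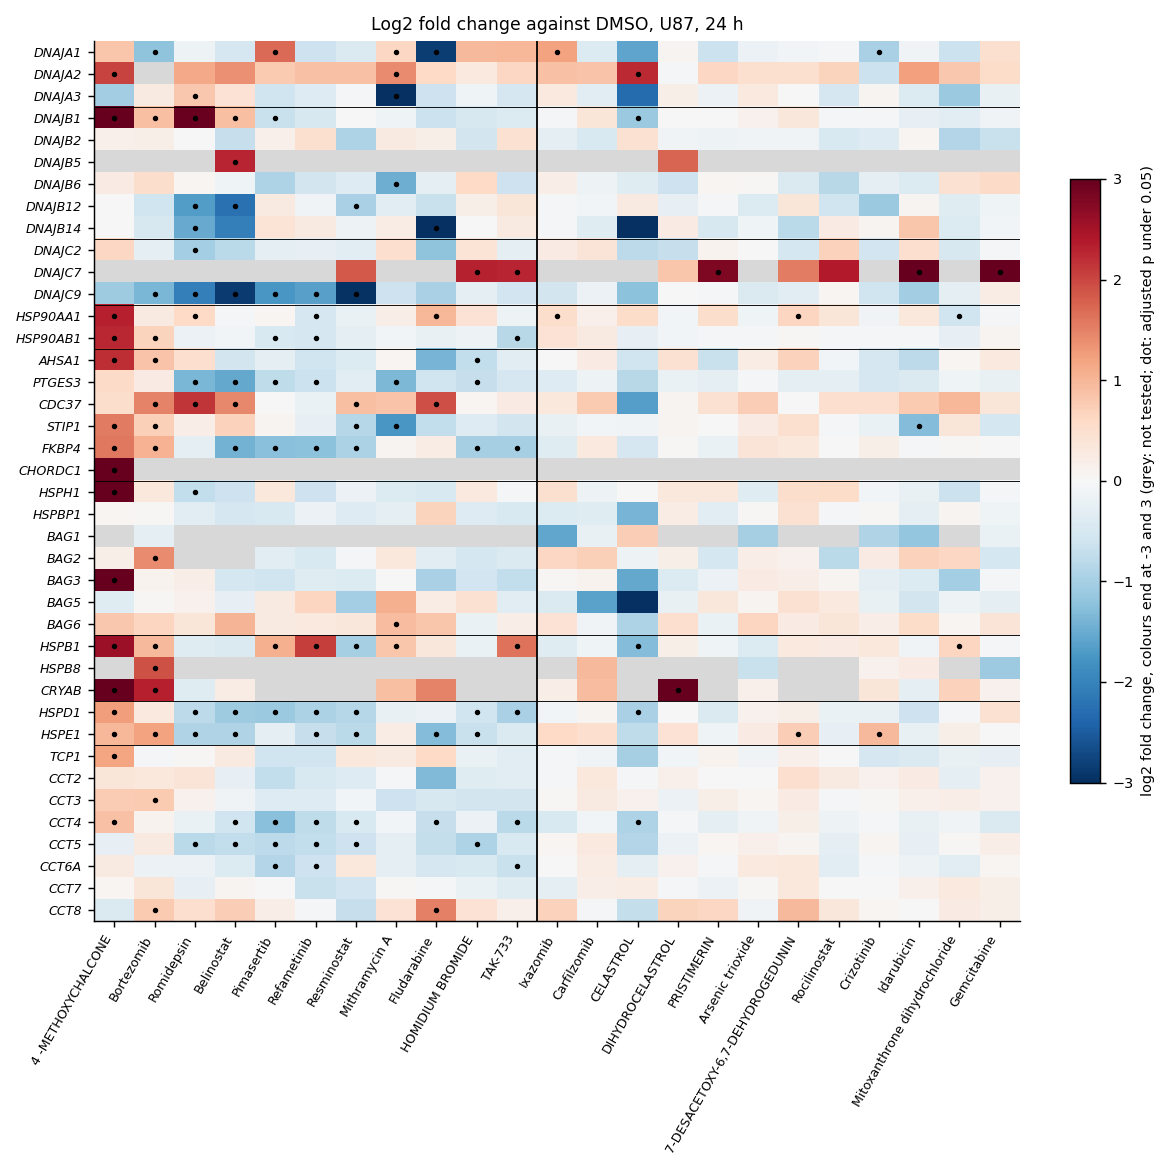
Log2 fold change of the members (rows) for 23 compounds against the DMSO wells of the same set in U87 cells (columns), red for higher, blue for lower, grey for not tested, with a dot where the adjusted p was under 0.05. The 11 compounds with most members called stand left of the line, led by 4 -METHOXYCHALCONE with 16 members higher and 0 lower, and the 12 others right of it.

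The broadest rise came with 4 -METHOXYCHALCONE at 9.87 µM, a chalcone, that is an aromatic enone, with a methoxy group. Of 36 members tested, 16 were higher and 0 lower, where 6.19% of all genes were higher and 4.41% lower. The median was 0.79 over members and -0.08 over all genes. Members took 3.63 and 3.18% of all counts in its 2 wells, against 0.914 to 0.963% in the 4 DMSO wells, and the totals of those 2 wells were 232135 and 347785, below the 672411 to 799631 of the DMSO wells.

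CRYAB (chr11:111779288-111794446, minus), the small heat shock protein alpha B crystallin, had the largest fitted value. It was at 2209.9 and 2208.3 CPM in the treated wells and at 2.59, 1.42, 7.44 and 0 CPM in the DMSO wells, a fitted log2 fold change of 9.67. In set 4 it passed the filter on low counts for 4 of 92 compounds, those with wells high enough, so with these it had to differ and its value is a description. DNAJB1 was at 6939.9 and 5952.0 CPM against 328.7 to 429.6 CPM (4.14, SE 0.13), HSPH1 at 986.5 and 1204.8 against 55.0 to 78.9 CPM (4.21, SE 0.19) and BAG3 at 956.3 and 503.2 against 67.5 to 102.2 CPM (3.26, SE 0.21). HSPB1 (chr7:75931990-75933612, plus) rose to 4014.9 and 4997.3 CPM from 671.6 to 1036.7 CPM (2.58, SE 0.13), HSP90AA1 by 2.33 (SE 0.16) and HSP90AB1 by 2.25 (SE 0.12). For all of these, both treated wells were above every DMSO well, and the 7 were called with no plate term as well.

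CHORDC1 passed the filter with this compound alone, with 6 and 9 counts in the treated wells, and its value of 3.61 (SE 1.09, adjusted p = 0.0398, edgeR) was lost in 4 of the 6 fits that left out 1 well. AHSA1 (2.20), DNAJA2 (2.02), FKBP4 (1.59), STIP1 (1.57), HSPD1 (1.24), TCP1 (1.18), HSPE1 (0.99) and CCT4 (0.87) completed the list of members called. DNAJA1, at 0.84 (SE 0.34, adjusted p = 0.134, edgeR), was not among them. Without any 1 well, between 15 and 17 members were called. Of 9 HSP70 genes tested, 6 were higher, HSPA1A, HSPA1B and HSPA6 among them, beside 2 of 11 chaperones of the endoplasmic reticulum.

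**Figure D5:**
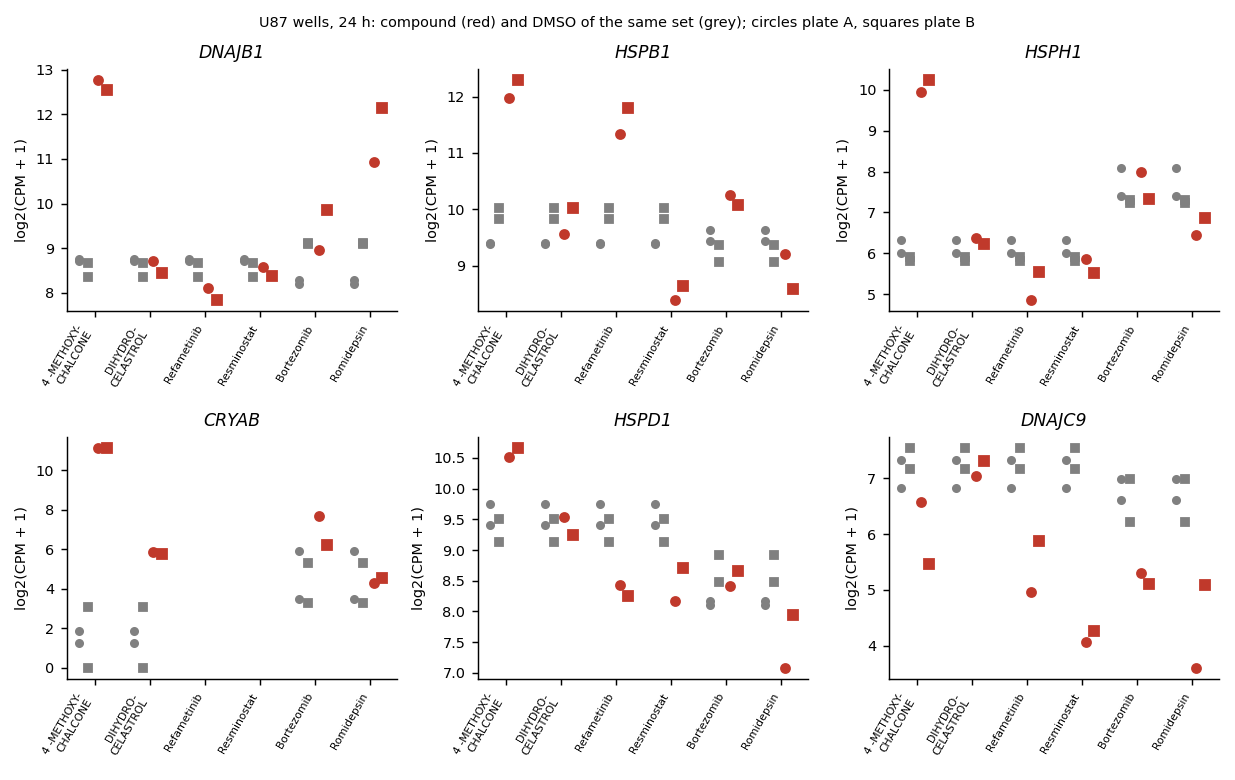
Level of 6 members as log2(CPM + 1) in the 2 wells of 6 compounds (red) and in the 4 DMSO wells of the same set (grey), circles for plate A and squares for plate B. CRYAB, DNAJB1, HSPH1 and HSPB1 stand far above DMSO with 4 -METHOXYCHALCONE, at 2209.9 and 2208.3 CPM for CRYAB against 0 to 7.44 CPM. DNAJC9 stands below DMSO with Resminostat, Romidepsin, Refametinib and Bortezomib.

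Bortezomib was also part of the U87 screen, at 0.01 µM for 24 h, a lower dose and a later time than in BT20. Of 36 members tested, 13 were higher and 2 lower, where 8.94% of all genes were higher and 9.64% lower. CRYAB led, at 202.3 and 74.4 CPM against 58.4, 10.3, 39.1 and 8.70 CPM (2.34, SE 0.49, adjusted p = 0.00564, edgeR). CDC37, which loads kinases onto HSP90, was at 108.8 and 132.7 CPM against 26.9 to 99.2 CPM (1.48, SE 0.30), HSPE1 at 377.6 and 342.3 against 140.9 to 240.3 CPM (1.20, SE 0.19), HSPB1 at 1221.3 and 1082.7 against 532.4 to 790.6 CPM (0.98, SE 0.16) and DNAJB1 at 494.1 and 919.0 against 290.8 to 556.8 CPM (0.91, SE 0.16).

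HSPB8 was called at 1.91 (SE 0.52) from plate A, with 79.4 CPM against 18.0 and 28.9 CPM, since plate B gave 2.48 CPM against 1.70 and 0 CPM. DNAJA1 and DNAJC9 were lower, by -1.22 (SE 0.25) and -1.36 (SE 0.31), and both wells of each were below every DMSO well. BAG2 (1.41), FKBP4 (1.05), AHSA1 (0.85), CCT3 (0.79), CCT8 (0.78), STIP1 (0.72) and HSP90AB1 (0.67) were the other members called, and with either bortezomib well left out 7 were called.

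With bortezomib, 4 members (AHSA1, DNAJB1, HSP90AB1 and HSPB8) were higher in both lines, which is 33.3% of the 12 in BT20 and 30.8% of the 13 in U87. Of the 12, 11 were tested in U87. HSPB8 passed the count filter in BT20 through its bortezomib wells. In U87 it was tested for 62 of 184 compounds and its call came from plate A, so its place in both lists is a description. Over all genes, 74 were higher in both, 39.8% of the 186 in BT20 (162 of them tested in U87) and 11.7% of the 631 in U87. Members called in BT20 but not in U87 included HSPH1 (0.31, SE 0.21), HSPD1 (0.30, SE 0.19), HSP90AA1 (0.28, SE 0.16) and BAG3 (0.11, SE 0.25). DNAJA1 was higher in BT20, by 0.72, and lower in U87, by -1.22. Line, dose and time differ together, so these lists stand side by side and the difference was not tested.

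The other proteasome inhibitors were given at other doses again, ixazomib at 0.036 µM and carfilzomib at 0.0038 µM. With ixazomib, 2 of 36 members were higher, DNAJA1 at 151.0 and 935.7 CPM against 125.8 to 299.3 CPM (1.20, SE 0.26, adjusted p = 0.0126, edgeR) and HSP90AA1 (0.52, SE 0.14), where 3.53% of all genes were called. DNAJA1 rose mostly on plate B. With carfilzomib 0 of 37 were called by edgeR (0.938% of all genes, 4 members with an unadjusted p under 0.05), with DNAJB1 at 0.35 (SE 0.15, adjusted p = 0.353, edgeR), while limma voom over all wells of the set called 4 (CRYAB, DNAJB1, DNAJC7 and HSP90AB1).

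Romidepsin, belinostat and resminostat, the histone deacetylase inhibitors among the compounds with most members called, are described together and were chosen by that number. Romidepsin, a cyclic peptide given at 0.697 µM, had 4 of 34 members higher (17.7% of all genes) and 9 lower (18%). Belinostat, a hydroxamate given at 3.5 µM, had 3 of 35 higher (10.2%) and 8 lower (11.1%), and resminostat, another hydroxamate, at 4.437 µM, had 1 of 35 higher (7.78%) and 9 lower (6.33%). The romidepsin wells held 267876 and 364834 counts and the belinostat wells 184684 and 207048. The DMSO wells of set 1 held 445250 to 588082, so low levels with these 2 drugs rest on a few counts and their folds are imprecise. DNAJC9 was the most reduced member with each of the 3 inhibitors. It was at 11.2 and 32.9 CPM with romidepsin (-2.06, SE 0.42) and at 16.2 and 9.66 CPM with belinostat (-2.88, SE 0.55), against 73.1 to 125.8 CPM in the DMSO wells of set 1, and at 15.7 and 18.4 CPM with resminostat (-2.96, SE 0.31), against 111.9 to 184.4 CPM in set 4. These 3 values kept their call in every fit that left out 1 well and with no plate term.

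HSPD1 and HSPE1 were lower with all 3, by -0.79 and -0.91 for romidepsin, -1.07 and -0.90 for belinostat and -0.85 and -0.80 for resminostat, and CDC37 was higher with all 3, by 2.15, 1.43 and 0.90. PTGES3, the co-chaperone p23, fell by 1.36 with romidepsin and by 1.52 with belinostat on the log2 scale. DNAJB12 was lower with all 3 as well (-1.68, -2.24 and -0.98). DNAJB1 went the other way with romidepsin, at 1963.6 and 4506.2 CPM against 290.8 to 556.8 CPM (2.98, SE 0.14, adjusted p = 1.51e-33, edgeR), and with belinostat (0.91, SE 0.18), while it was not called with resminostat. The remaining calls were CCT5 lower with all 3, CCT4 lower with belinostat and resminostat, FKBP4 lower with belinostat (-1.43) and resminostat (-0.94), HSPH1, DNAJC2 and DNAJB14 lower and DNAJA3 and HSP90AA1 higher with romidepsin, DNAJB5 higher with belinostat (it passed the filter for 13 of 184 compounds, those with wells high enough, so its call is no measure of a rise), and HSPB1 and STIP1 lower with resminostat.

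These counts depended on single wells. Romidepsin had 8 and 6 members called without its plate A or plate B well, belinostat 5 and 4, and 7 without the fourth DMSO well, and resminostat 3 and 3. With untreated wells added to the controls, HSPB1 and CDC37 were no longer called for resminostat, nor DNAJB14 for romidepsin. Rocilinostat, known for selectivity toward HDAC6, was given at 1.541 µM and had 0 of 35 members called by edgeR (1.1% of all genes, 5 members with an unadjusted p under 0.05, 1 by limma voom, DNAJC7), with DNAJC2 at 0.68 (SE 0.28, adjusted p = 0.29, edgeR).

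The screen held 8 compounds known as histone deacetylase inhibitors, and the other 4 had fewer members called. Panobinostat at 0.012 µM had 1 of 37 members higher (CDC37) and 1 lower (DNAJC9), with 2.6% of all genes called, and Vorinostat at 1.4 µM 0 of 37 higher and 2 lower (HSP90AA1 and HSPH1), with 6.98% called. PCI-24781 at 0.339 µM had 1 of 34 higher (HSPB1) and 3 lower (DNAJC9, HSPD1 and HSPE1), with 6.61% called, and Pracinostat at 0.42 µM 1 of 34 higher (CDC37) and 2 lower (DNAJC9 and HSPD1), with 5.18% called. DNAJC9 had -1.51 (SE 0.32) with panobinostat, -1.21 (SE 0.26) with PCI-24781, -1.01 (SE 0.28) with pracinostat and -0.42 (SE 0.26, adjusted p = 0.412, edgeR) with vorinostat. With no plate term 0 members were called for each of these 4.

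Of 5 inhibitors of the kinase MEK in the screen, each given at another dose, the 3 chosen for their number of members called are set side by side first. Pimasertib at 0.911 µM had 2 of 34 members higher (5.19% of all genes) and 9 lower (4.98%), refametinib at 2.289 µM 1 of 34 higher (7.39%) and 10 lower (6.9%), and TAK-733 at 0.268 µM 2 of 35 higher (4.43%) and 5 lower (3.62%). HSPB1 was higher with each, at 1361.8 and 2023.4 CPM with pimasertib (1.06, SE 0.12), 2582.4 and 3552.7 CPM with refametinib (2.08, SE 0.11) and 1806.9 and 3112.2 CPM with TAK-733 (1.62, SE 0.12), against 671.6 to 1036.7 CPM in the shared DMSO wells. Both wells of each compound were above all 4 DMSO wells.

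Lower with all 3 were the chaperonin subunits HSPD1 (-1.12, -0.94 and -0.97), CCT4 (-1.26, -0.77 and -0.81) and CCT6A (-0.87, -0.62 and -0.67), the steroid receptor co-chaperone FKBP4 (-1.25, -1.23 and -0.99) and HSP90AB1 (-0.46, -0.50 and -0.83). DNAJC9 was lower with pimasertib (-1.75, SE 0.32) and refametinib (-1.63, SE 0.28). CCT5 and PTGES3 were lower with the same pair, HSPE1 and HSP90AA1 with refametinib, and DNAJB1 with pimasertib. DNAJA1 was higher with pimasertib, at 617.1 and 266.6 CPM against 117.6 and 261.4 CPM on plate A and 51.3 and 117.5 CPM on plate B (1.70, SE 0.32). DNAJC7 passed the filter for 53 of 184 compounds, those with wells high enough, so its calls are no measure of a rise. It was called with TAK-733 from 35.1 and 21.1 CPM and lost with untreated wells added. PTGES3 with refametinib was lost in the same way. Without the plate A or plate B well, 6 and 5 members were called with pimasertib, 7 and 5 with refametinib and 4 and 4 with TAK-733. The other MEK inhibitors, in set 1, had fewer calls. Trametinib at 0.036 µM had 1 of 37 members higher (HSPB1, 1.02, SE 0.16, adjusted p = 0.000122, edgeR) and 4 lower (CCT8, DNAJA3, HSP90AA1 and HSPH1), with 6.67% of all genes called. Cobimetinib at 0.5 µM had 1 of 38 higher (DNAJC7) and 2 lower (CCT4 and PTGES3), with 4.45% called, and its HSPB1 was at 0.15 (SE 0.16, adjusted p = 0.734, edgeR). With no plate term 0 members were called for both.

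The remaining compounds chosen for their number of members called were mithramycin A, fludarabine and HOMIDIUM BROMIDE. Mithramycin A, a binder of GC-rich DNA given at 0.08 µM, had 4 of 35 members higher (11.1% of all genes) and 4 lower (13.4%). Its wells held 315327 and 364450 counts, so a level below about 10 CPM rests on a few counts. DNAJA3, a mitochondrial J-domain protein, was at 6.34 and 8.23 CPM against 45.4 to 94.3 CPM (-3.28, SE 0.56, adjusted p = 2.32e-06, edgeR), and STIP1 (-1.76), DNAJB6 (-1.46) and PTGES3 (-1.35) were lower too, while DNAJA2 (1.41), BAG6 (0.93), HSPB1 (0.84) and DNAJA1 (0.63) were higher. Without its plate A or plate B well 5 and 4 members were called, and BAG6 was lost with untreated wells added to the controls.

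Fludarabine, a purine analogue given at 3.2 µM, had 3 of 35 higher (7.89%) and 4 lower (9.41%). Its wells held 76948 and 95412 counts, the median over all genes was -0.36, and values are read against that shift. HSP90AA1 was at 896.7 and 3374.8 CPM against 604.2 and 622.8 CPM on plate A and 1731.1 and 1766.0 CPM on plate B (1.00, SE 0.18), and CDC37 (1.92) and CCT8 (1.52) were higher too, while DNAJA1, at 26.0 and 21.0 CPM against 125.8 to 299.3 CPM, fell by 2.85 on the log2 scale. DNAJB14 was at 0 counts in both treated wells, where 3 counts would be 39.0 and 31.4 CPM, and at 20.6 to 51.0 CPM with DMSO, so that no fold is given. HSPE1 and CCT4 were also called lower. With the plate B well left out 2 members were called, and without the third DMSO well 4.

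HOMIDIUM BROMIDE, the DNA dye ethidium bromide, at 3.26 µM had 1 of 35 higher, DNAJC7 (4.58% of all genes). In set 4 this gene passed the filter for 42 of 92 compounds, those with wells high enough, so its call is no measure of a rise. The 6 members lower (4.38%) were FKBP4 (-0.99, SE 0.22), CCT5 (-0.93, SE 0.18), AHSA1 (-0.73), PTGES3 (-0.69), HSPE1 (-0.68) and HSPD1 (-0.59). This list was the least firm, with 1 and 0 members called without its plate A or plate B well, 3 without the second DMSO well and 3 with untreated wells added to the controls.

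Among known inducers of the heat shock response, the triterpenoids celastrol, DIHYDROCELASTROL and PRISTIMERIN were given at 8.37, 9.19 and 0.855 µM. With DIHYDROCELASTROL, 1 of 37 members was higher (1.61% of all genes called), CRYAB at 57.5 and 52.5 CPM against 0 to 7.44 CPM (fitted value 4.30), a compound again among the 4 of set 4 with CRYAB wells high enough to pass the filter, while DNAJB1 was at -0.01 (SE 0.15) and HSPH1 at 0.32 (SE 0.26). With PRISTIMERIN, 1 of 35 was higher (1.34%), DNAJC7 at 39.5 and 38.0 CPM against 2.83 to 14.2 CPM (2.79, SE 0.54). In set 4, DNAJC7 passed the filter for 42 of 92 compounds, those with wells high enough, so this call is no measure of a rise. Celastrol wells held 45384 and 43487 counts with a median of -0.47 over all genes, and 1 of 35 members was higher and 4 lower (7.36%): DNAJA2 at 2.23 (SE 0.71), HSPB1 at -1.30, DNAJB1 at -1.11, HSPD1 at -0.97 and CCT4 at -0.93. With untreated wells added, HSPB1, DNAJB1 and HSPD1 were no longer called for celastrol, with RLE normalization CCT4, DNAJB1 and HSPD1 were not, with p-values adjusted over all compounds DNAJA2 and DNAJB1 were not, without a filter DNAJA2 was not, and with limma voom HSPB1 was not.

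The limonoid 7-DESACETOXY-6,7-DEHYDROGEDUNIN at 2.00 µM had 2 of 35 members higher (1.14%), HSPE1 at 559.6 and 2145.3 CPM against 283.3 and 353.3 CPM on plate A and 1279.0 and 1339.4 CPM on plate B (0.73, SE 0.13), and HSP90AA1 at 1574.4 and 888.0 CPM (0.65, SE 0.15). Of its 35 members tested, 28 had values above 0 (80%), with a median of 0.25, against 48.9% and -0.01 over all genes. Arsenic trioxide at 0.4 µM had 0 of 37 called by edgeR (0.258%, 2 with an unadjusted p under 0.05, 0 by limma voom).

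Of the drugs shared with the BT20 screen, doses and times were different. Crizotinib at 0.181 µM had HSPE1 higher (0.98, SE 0.21) and DNAJA1 lower (-0.98, SE 0.24) of 37 members, with 0.72% of all genes called. Idarubicin at 0.024 µM had DNAJC7 higher (3.45, SE 0.68) and STIP1 lower (-1.29, SE 0.35) of 38, with 1.39% called, Mitoxanthrone dihydrochloride at 0.012 µM HSPB1 higher (0.65, SE 0.16) and HSP90AA1 lower (-0.60, SE 0.16) of 35, with 2% called, and gemcitabine at 0.0085 µM DNAJC7 higher (3.47, SE 0.58) of 38, with 0.579% called. In set 1, DNAJC7 passed the filter on low counts for 11 of 92 compounds, those with wells high enough, so its values here are a description. With untreated wells added to the controls, all calls with these drugs except HSP90AA1 with Mitoxanthrone dihydrochloride were lost. Over all 12 compounds of this list, 18 members were called in sum, 5 without the plate A wells, 7 without the plate B wells, 11 without the second DMSO well and 0 with no plate term.

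Across all 184 compounds, 32 members were tested each time and 4 never (DNAJA4, DNAJB4, HSF1 and STUB1). Among 5701 genes tested each time, the median gene was called for 3 compounds and about 5% of genes for 23 or more. DNAJC9 was called lower for 25 compounds and higher for 0, PTGES3 lower for 17 and higher for 0, CCT4 lower for 13 and higher for 1, and HSPD1 lower for 16 and higher for 1. CDC37 was called higher for 8 and lower for 0, and DNAJA2 likewise. Both directions occurred for HSPB1 (14 higher, 20 lower), HSPE1 (13 and 10), STIP1 (8 and 14) and HSP90AA1 (7 and 13). Of the stress genes that bortezomib raised most in BT20, BAG3 was higher for 1 compound, HSPH1 for 1 (lower for 4) and DNAJB1 for 5 (lower for 2).

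Some of these numbers hung on the 4 DMSO wells that compounds of a set share. With untreated wells added to the controls, HSPB1 was called higher for 8 and lower for 0 compounds, HSPD1 lower for 7, PTGES3 lower for 11 and DNAJC9 lower for 20. DNAJC7 was tested for 53 compounds, those in which its wells were high enough to pass the filter, and its 14 higher calls became 5, so its count is no measure of how often it rose. Its 4 DMSO wells were at 0, 0, 8.50 and 8.70 CPM in set 1 and at 2.83, 2.97, 3.75 and 14.2 CPM in set 4.

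Finally, members differed in level between the lines in control wells, as a description only, since the tables were counted on 2 lists of symbols and in other runs. Handling differed too. By the study's methods, BT20 plates were frozen in serum with DMSO and thawed before lysis, and no such step is given for U87 and LNCaP cells. The part of handling in the levels was not tested. DNAJB1 was at 46.3 CPM (SD 16.9, n = 12) in BT20 DMSO wells, 105.8 (SD 24.7, n = 96) and 133.4 CPM (SD 32.5, n = 96) in the LNCaP tables, which can share lysates, and 427.2 (SD 145.5, n = 4) and 394.3 CPM (SD 45.1, n = 4) in the U87 sets. BAG3 followed the same order, at 8.25 CPM (SD 6.03), 42.1 (SD 16.2) and 41.1 CPM (SD 12.0), and 92.4 (SD 16.2) and 79.4 CPM (SD 16.2), with no overlap between the BT20 and the U87 wells. HSPB1 had another order, lowest in U87 at 668.4 (SD 106.5) and 823.5 CPM (SD 181.3), then BT20 at 1483.8 CPM (SD 212.9), then LNCaP at 2754.6 (SD 600.9) and 2675.2 CPM (SD 657.2). HSPD1 was at 499.1 CPM (SD 45.8) in BT20, 349.9 (SD 95.3) and 704.9 CPM (SD 124.5) in the U87 sets and 1219.7 (SD 152.9) and 1224.9 CPM (SD 154.9) in LNCaP, so that BT20 lay between the U87 sets. CRYAB and HSPB8 were low in every line, with means from 2.86 to 29.1 CPM and from 0.995 to 12.1 CPM, and their ranges overlapped between lines.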

How the data were processed

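The 8 deposited tables hold raw counts for 688 samples, made by the authors: reads were assigned to wells by barcode with 1 error allowed, aligned with BWA to UCSC known genes of hg19 and, when unique and on the sense strand, counted per gene without molecular identifiers. For TruSeq, strand and counting are not given in the sources used here. The 92 spike-ins were left out, and every column was mapped to a sample by its label. CPM is a count divided by the library's total.

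Each fit held all genes: edgeR 4.0.16 (R 4.3.3, limma 3.58.1) with TMM, filterByExpr, robust glmQLFit and glmQLFTest, Benjamini-Hochberg adjustment over all genes tested and calls at an adjusted p under 0.05. The SE is the absolute log2 fold change divided by the square root of F. BT20 PLATE-Seq fits held 12 drug and 12 DMSO wells, the TruSeq fit all 16 pools, and U87 fits 2 compound and 4 DMSO wells of a set, or 8 DMSO and 8 untreated wells, with plate as a term. The procedure was tested on simulated data. Tables and plots used Python 3.11.15, numpy 2.4.6, pandas 2.3.3 and matplotlib 3.10.9.

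The members, lists and tests were chosen with earlier results of these data known. Genes were named when called in BT20 PLATE-Seq, or as the most abundant member of a role without a call, and in U87 for the 10 compounds with most members called (ties kept, at least 5) and a panel, mainly the 8 largest changes. Gene positions are GRCh37. Well numbers in BT20 could pair the wells in runs of 8, but across 8806 genes 0 of 84 drug and DMSO pairs had a correlation of deviations over 0.1 (mean 0.0054), so the block stayed an alternative. Other alternatives were DESeq2 1.42.0, RLE, other filters, limma voom, all wells in 1 fit, 1 low-depth well removed, no plate term, p-values adjusted over all compounds and single replicates left out. Untreated wells as added controls, and the counts for further histone deacetylase and MEK inhibitors, were chosen after seeing the data.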

Additional observations from a re-analysis of the deposited data

Results flagged for a closer look

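In 3 of 54 groups of 4 DMSO wells in U87, 1 well stood apart by Dixon's test, which chance gives in about 1 of 20 groups. HSPH1 was at 271.8 CPM in 1 DMSO well of set 1 and at 149.6, 158.1 and 169.1 CPM in the others. CHORDC1 was at 9.914 CPM in 1 DMSO well of set 4 and at 0, 0 and 1.294 CPM in the others. DNAJC7 was at 14.23 CPM in 1 DMSO well of set 4 and at 2.833, 2.974 and 3.752 CPM in the others.

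With bortezomib, DNAJA1 was higher in BT20 and lower in U87, a difference in log2 fold change of 1.935 (0.72 and -1.22). For DNAJC2 the difference was 0.963 (0.67 in BT20, and -0.29 in U87, where it was not called). These differences were not tested, and line, dose and time differ together.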

How the results depend on the processing

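Of 1313 repeated fits of a named member, 996 kept the direction and the side of the threshold, 317 kept the direction and lost the threshold, and 0 reversed. A member called in the main fit can only keep or lose its call, and 0 fits gained one. With no plate term, 82 of 103 fits lost the threshold and 21 kept it. Of the 593 fits with neither this change nor a replicate left out, 66 lost it and 527 kept it. In BT20 wells, 11 to 14 members were called with bortezomib, 1 with mitoxantrone under DESeq2, 1 with crizotinib with the replicate block of runs of 8 wells, and 0 with idarubicin with all 96 wells in 1 fit. For TruSeq, aprepitant had 6 without a filter on low counts. In U87 with no plate term (no replicate block), 10 members were called for 4 -METHOXYCHALCONE, 0 for bortezomib, 4 for romidepsin, 2 for belinostat, 0 for pimasertib, 1 for refametinib, 1 for resminostat, 3 for mithramycin A, 3 for fludarabine, 0 for HOMIDIUM BROMIDE, 0 for TAK-733, 0 for the 12 others, 24 over all compounds and 0 for DMSO against untreated wells. With p-values adjusted over all compounds there were 7 for romidepsin, 6 for belinostat, 5 for resminostat, 5 for mithramycin A, 4 for fludarabine and 3 for HOMIDIUM BROMIDE. Without a filter mithramycin A had 5, and with untreated wells added HOMIDIUM BROMIDE had 3. With 1 replicate left out, a setting that has fewer samples by construction and in which a lone pool or well is assumed to vary like the others, the numbers called were 9 to 13 (mitoxantrone), 16 to 24 (crizotinib), 0 to 7 (albendazole), 12 to 20 (idarubicin), 0 to 5 (aprepitant) and 33 to 37 (bortezomib) in TruSeq. In U87 they were 15 to 17 (4 -METHOXYCHALCONE), 7 to 14 (bortezomib), 6 to 12 (romidepsin), 4 to 11 (belinostat), 5 to 11 (pimasertib), 5 to 13 (refametinib), 3 to 9 (resminostat), 4 to 10 (mithramycin A), 2 to 7 (fludarabine), 0 to 9 (HOMIDIUM BROMIDE), 4 to 8 (TAK-733) and 5 to 17 (the 12 others in sum). The cause of the other changes was not tested. Depth limits PLATE-Seq: 8 members could not be tested in BT20 wells with bortezomib.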
